A study of Mus musculus with 7 samples.

Results

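Accessible regions were examined around Pde4d, Cacna1c and Camk1g, 3 genes of calcium and cyclic AMP (cAMP) signalling, in mammary tumour cells sorted as positive or negative for mCherry, a reporter of Dll1, which encodes a Notch ligand. The genes were chosen from the peak lists themselves, for an excess of regions called only in Dll1- cells, so the counts of such regions are a description and were not tested. A region belonged to a gene when the transcription start site (TSS) nearest to its midpoint, among protein-coding transcripts, was a TSS of that gene. By this rule 173 of 119215 regions belonged to the 3 genes, with 87 for Pde4d, 37 for Cacna1c and 49 for Camk1g.

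Chromatin was profiled by ATAC-seq, in which a transposase inserts sequencing adapters where DNA is open. All mice carried the MMTV-PyMT transgene, in which the mouse mammary tumour virus promoter drives the polyoma middle T oncoprotein and causes mammary tumours, together with a Dll1-mCherry reporter. Cells carrying the lineage markers CD45, CD31 or Ter119 had been removed by sorting, and the rest were sorted on mCherry into a positive (Dll1+) and a negative (Dll1-) population. There were 7 samples from 4 tumours, and 3 tumours gave both populations. The authors pooled 3 samples into the Dll1+ list and 4 samples into the Dll1- list. With 1 pooled list per population, no difference could be set against the spread between replicates.

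Calcium and cAMP are linked second messengers. Pde4d encodes a phosphodiesterase that degrades cAMP and so limits protein kinase A signalling. Cacna1c encodes the pore-forming subunit of an L-type voltage-gated calcium channel, best known from heart, smooth muscle and neurons. Camk1g encodes a calcium/calmodulin-dependent protein kinase of the CaMKI family. In the nucleus cAMP acts through CREB, which binds the cAMP response element (CRE), while calcium acts through calcineurin and NFAT. AP-1 is the Jun-Fos factor, whose site is one of the most frequent in open chromatin of epithelial tumours.

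The windows on which the description turns are given first, as 201 bp centred on the strongest summit, on the plus strand of GRCm38, with AP-1 (TGACTCA or TGAGTCA) and CRE (TGACGTCA) matches in capitals. The strongest Dll1- only region of each gene came first. These lay in introns of Pde4d and Cacna1c and in the intergenic stretch upstream of Camk1g.
Pde4d, Dll1- only, chr13:109609901-109610101: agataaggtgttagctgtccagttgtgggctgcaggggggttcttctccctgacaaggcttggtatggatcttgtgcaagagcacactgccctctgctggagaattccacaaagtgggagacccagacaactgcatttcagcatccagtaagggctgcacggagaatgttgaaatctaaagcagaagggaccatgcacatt
Cacna1c, Dll1- only, chr6:118839635-118839835: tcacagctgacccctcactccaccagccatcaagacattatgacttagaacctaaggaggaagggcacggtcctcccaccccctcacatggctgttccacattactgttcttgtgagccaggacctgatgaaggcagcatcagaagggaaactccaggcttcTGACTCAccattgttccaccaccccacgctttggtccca
Camk1g, Dll1- only, chr1:193400490-193400690: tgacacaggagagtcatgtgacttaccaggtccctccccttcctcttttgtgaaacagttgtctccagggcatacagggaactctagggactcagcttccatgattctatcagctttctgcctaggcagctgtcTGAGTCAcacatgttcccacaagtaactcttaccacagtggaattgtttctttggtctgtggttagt
The Pde4d window held no AP-1 match, whereas the Cacna1c and Camk1g windows held 1 each. A further Dll1- only window of Cacna1c is shown because it held 2 matches, as did 1 other Dll1- only region of Cacna1c and 1 shared region of Pde4d, and another upstream of Camk1g because it held 4, the most of any of the 173 regions. Both were chosen to be shown after their counts had been seen.
Cacna1c, Dll1- only, chr6:118884260-118884460: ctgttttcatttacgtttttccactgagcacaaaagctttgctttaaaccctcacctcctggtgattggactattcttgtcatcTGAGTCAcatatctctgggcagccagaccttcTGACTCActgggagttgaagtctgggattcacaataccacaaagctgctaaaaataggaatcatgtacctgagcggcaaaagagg
Camk1g, Dll1- only, chr1:193905850-193906050: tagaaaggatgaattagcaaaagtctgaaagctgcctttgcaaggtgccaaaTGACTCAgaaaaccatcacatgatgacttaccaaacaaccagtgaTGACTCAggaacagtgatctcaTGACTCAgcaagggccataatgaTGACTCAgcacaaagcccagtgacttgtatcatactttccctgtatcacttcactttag
The CRE, the element of the pathway itself, was present in 2 of the 173 windows, which are both shown and were picked after that count. The first lay in a Dll1- only region in an intron of Cacna1c, and the second in a shared region in an intron of Pde4d.
Cacna1c, Dll1- only, chr6:118825701-118825901: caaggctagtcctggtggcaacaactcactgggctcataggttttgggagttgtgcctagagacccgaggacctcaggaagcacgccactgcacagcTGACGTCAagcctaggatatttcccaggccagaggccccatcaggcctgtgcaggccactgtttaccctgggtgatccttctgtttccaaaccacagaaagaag
Pde4d, shared, chr13:109822442-109822642: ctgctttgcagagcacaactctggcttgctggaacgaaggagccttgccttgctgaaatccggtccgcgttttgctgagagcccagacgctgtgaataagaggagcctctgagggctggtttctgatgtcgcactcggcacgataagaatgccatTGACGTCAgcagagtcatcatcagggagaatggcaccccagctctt
The strongest shared region of the 3 genes, in an intron of Pde4d, held neither.
Pde4d, shared, chr13:109776178-109776378: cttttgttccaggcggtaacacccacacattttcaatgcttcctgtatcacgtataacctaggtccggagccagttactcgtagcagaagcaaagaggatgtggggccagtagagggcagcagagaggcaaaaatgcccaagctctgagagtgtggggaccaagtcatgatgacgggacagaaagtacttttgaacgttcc

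Of the 173 regions, 63 were called only in the Dll1- list, 9 only in the Dll1+ list and 101 in both. The Dll1- only share was 36.4% (Wilson 95% interval 29.6 to 43.8%), where 24.6% of all regions were Dll1- only. The Dll1+ only share was 5.20% (2.76 to 9.59%), where 9.01% of all regions were Dll1+ only. Intervals cover counting error only, and neighbouring regions and reads that lack molecular identifiers need not be independent. The excess was uneven between the genes. Cacna1c had 19 Dll1- only, 1 Dll1+ only and 17 shared regions, a Dll1- only share of 51.4% (35.9 to 66.6%). Camk1g had 20, 2 and 27, a share of 40.8% (28.2 to 54.8%). Pde4d had 24, 6 and 57, a share of 27.6% (19.3 to 37.8%). Pde4d had the most regions of the 3 genes with a Dll1- only share near that of all regions, while in Cacna1c the Dll1- only regions outnumbered the shared ones. In sorted bulk samples, fewer cells with a region open and a weaker opening in all cells cannot be told apart.

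**Figure D1:**
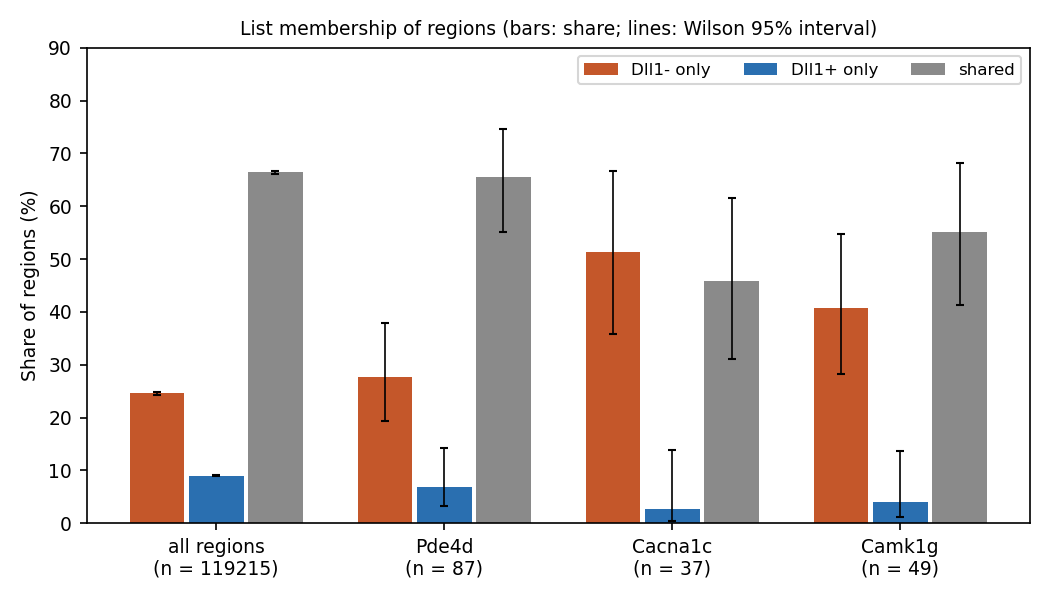
Share of regions called only in the Dll1- list, only in the Dll1+ list or in both (y axis, %), for all regions and for each gene (x axis), with Wilson 95% intervals as lines. The Dll1- only bar reached 51.4% in Cacna1c and 40.8% in Camk1g, against 27.6% in Pde4d and 24.6% of all regions.

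Among all 17373 protein-coding genes with a region, 51.7% had more Dll1- only than Dll1+ only regions and 11.3% had fewer, with a median difference of 1. The 3 genes shared a difference of 18. Myc, at 23, and Sox9, at 19, stood above them, and Mical2, which encodes an actin-oxidising enzyme, stood at 18 with the same 19, 1 and 17 regions as Cacna1c. Just below came Bcor, Sh3bp4 and Smad7 at 17 and Ets1 and Med13l at 16, so the boundary of the selection fell between near neighbours. Since the difference grows with the number of regions, the Dll1- only share was also ranked over the 267 genes with at least 37 regions. That floor was the count of Cacna1c itself, and genes with fewer regions could have higher shares, as had Nfatc1 with 52.2% of 23. The share comes from the counts that chose the genes, so the ranks are a description. In the 267 genes the share ran from 4.76 to 51.4% with a median of 23.5%. Cacna1c and Mical2 tied for rank 1, Camk1g was at rank 4 and Pde4d at rank 78.

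**Figure D2:**
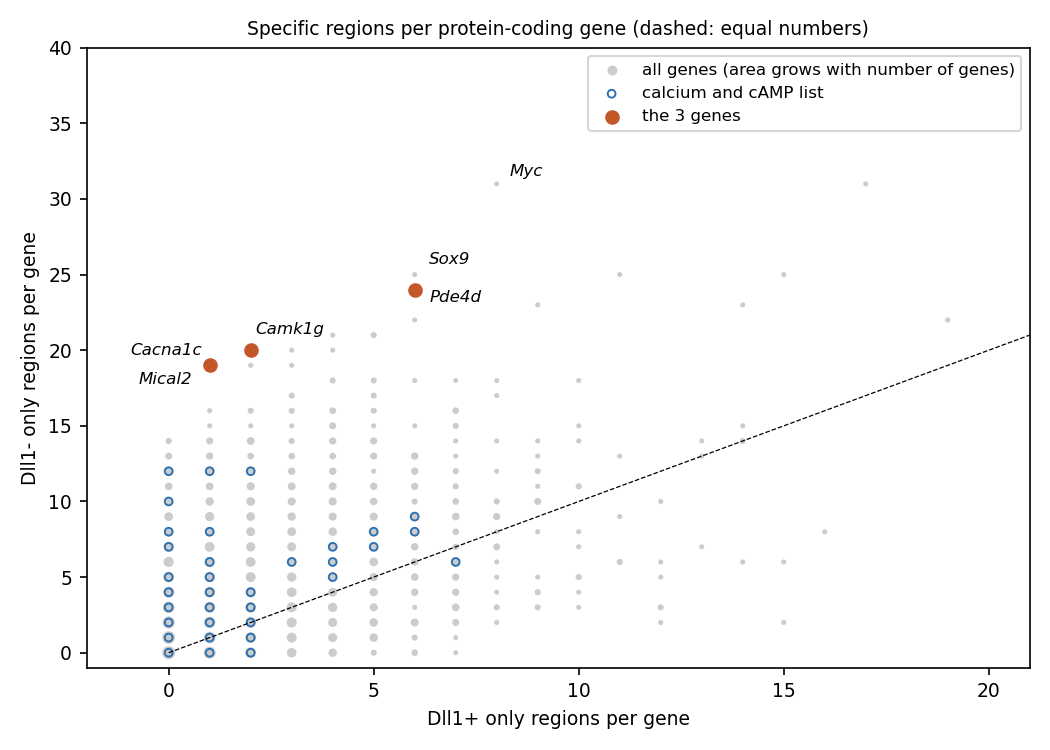
Number of Dll1- only (y axis) against Dll1+ only regions (x axis) for every protein-coding gene. Grey points stand for genes at the same pair of counts, open circles for the calcium and cAMP list and filled circles for the 3 genes, which lay on the outer edge of the cloud at 24 and 6 (Pde4d), 19 and 1 (Cacna1c) and 20 and 2 (Camk1g).

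Strength was read as the deposited fold enrichment over local background and as the percentile of that fold within its own list. The Dll1- only regions of the 3 genes were of low to moderate strength. Their fold ran from 2.40 to 8.05 with a median of 3.86, where the median row of the Dll1- list stood at 5.00. Their percentiles ran from 8.03 to 73.8 with a median of 33.9, close to the 33.1 of all Dll1- only regions. Of the 63, 15 (23.8%) lay above the median fold of the list, as did 22.3% of all Dll1- only regions, and 0 lay above its 75th percentile, where 2.38% of all Dll1- only regions did. The 101 shared regions had a median fold of 7.18 among Dll1+ rows and 7.27 among Dll1- rows, where all shared regions had 7.71 and 7.51. Of the 101, 21 (20.8%) were in the top decile of the Dll1- list, where 18.6% of all shared regions were.

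The Dll1- only share depended on strength in these genes as in all regions. Among regions of the Dll1- list up to the 25th percentile, 18 of 22 at the 3 genes were Dll1- only, or 81.8% (61.5 to 92.7%), where 63.6% of all such regions were. From the 25th to the 50th percentile it was 30 of 48, or 62.5% (48.4 to 74.8%), against 46.8%. From the 50th to the 75th it was 15 of 50, or 30.0% (19.1 to 43.8%), against 19.5%. Above the 75th it was 0 of 44, with an upper bound of 8.03%, against 1.97%. The genes were chosen for this excess, so the shares in each bin are a description. Cacna1c had few strong regions of any kind, with 3 of its 36 regions in the Dll1- list above the 75th percentile, or 8.33%. The share was 34.6% (28 of 81) in Pde4d and 27.7% (13 of 47) in Camk1g, where 32.7% of all regions in the list lay above that percentile.

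**Figure D3:**
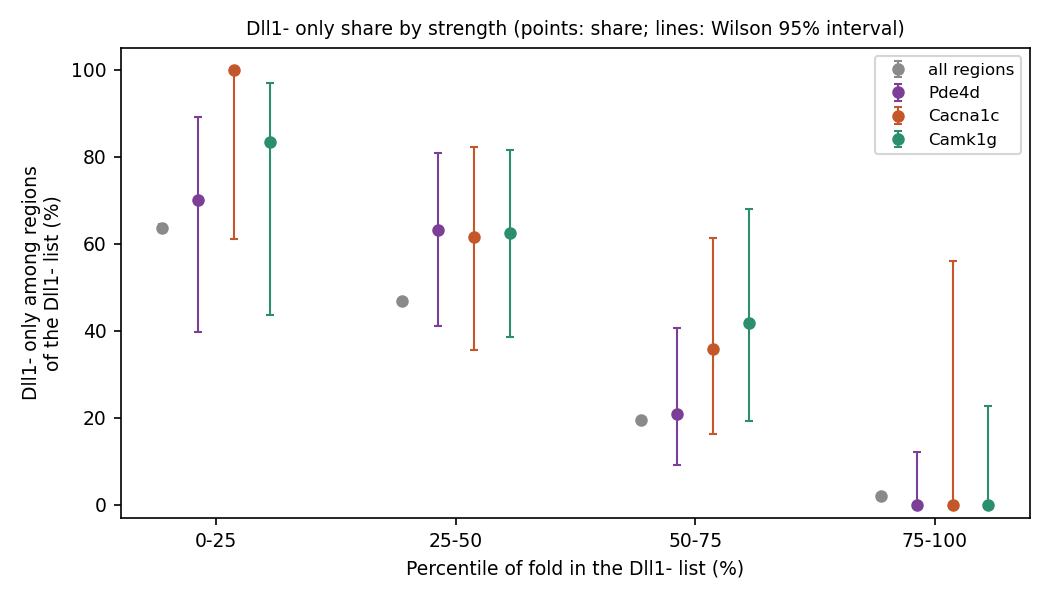
Share of the regions in the Dll1- list that were called only there (y axis, %), by percentile of fold within that list (x axis), for all regions and each gene, with Wilson 95% intervals. The share fell with strength in every set, and no region of the 3 genes above the 75th percentile was Dll1- only.

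The lists differed in depth, which moves with this result. Solved from fold and p-value, the lowest background that any row had was 7.20 reads for Dll1- cells and 3.74 for Dll1+ cells, 1.93 times apart. The 63 Dll1- only regions held 19 to 140 reads at the strongest summit, with a median of 32. Divided by 1.93, the median became 16.6 reads, where Dll1+ only regions of the whole genome had a median of 22.0, and 44 of the 63 (69.8%) fell under that value, as did 64.7% of all Dll1- only regions. Of the 63, 44 (69.8%) lay at this lowest background, as did 58.5% of all Dll1- only regions. The part of depth in the excess could not be told apart from that of the cells.

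Pde4d (ENSMUSG00000021699.17) spans 1504 kb of chromosome 13, from 108449948 to 109953461 on the plus strand, with 9 coding TSSs that start long and short isoforms. Its regions were spread along the whole gene, and 22 of its 24 Dll1- only regions lay inside it, mostly in introns. They lay a median of 47.3 kb from the nearest TSS, where its shared regions lay a median of 51.3 kb away. The strongest, at 109609800-109610162, had a fold of 8.05 from 65 reads, at the 73.8th percentile. It was followed by 109736383-109736623, with a fold of 6.95 at the 67.4th percentile, and by 110062269-110062593, with a fold of 6.83 at the 66.5th. The last lay in an intron of the neighbouring Rab3c, 146 bp from a shared region. Over the 3 genes 10 of 63 Dll1- only regions (15.9%) lay within 1 kb of a shared region, where 17.1% of all Dll1- only regions did. The strongest Dll1+ only region, 108519530-108520403, had a fold of 5.68 from 27 reads at the 50.6th percentile of the Dll1+ list. It lay inside the gene record but upstream of the first basic transcript.

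Pde4d was widely open in both populations. Its shared region at 109775945-109776490 had a fold of 22.4 for Dll1+ and 23.1 for Dll1- cells, at the 99.2nd and 99.4th percentiles, and 16 of its 57 shared regions (28.1%) were in the top decile of the Dll1- list, where 18.6% of all shared regions were. Of its 9 TSSs, 4 had a shared region in their promoter (1000 bp upstream to 100 bp downstream). That of Pde4d-205 had the highest fold, at 13.3 for Dll1+ and 10.9 for Dll1- cells, and had a separate Dll1- only region beside it with a fold of 6.03 from 70 reads, at the 60.4th percentile. That of Pde4d-207 had folds of 3.66 and 4.85. The promoter of Pde4d-203, whose TSS lies near the 3′ end of the gene, had a Dll1- only region alone, with a fold of 3.29 from 26 reads at the 24.3rd percentile. No Pde4d promoter had a Dll1+ only region.

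Cacna1c (ENSMUSG00000051331.15) spans 609 kb of chromosome 6, from 118587240 to 119196418 on the minus strand, with 10 coding TSSs. All of its 19 Dll1- only regions lay inside the gene, 18 in introns and 1 in a promoter. In the middle of the gene 7 of them followed each other with no shared or Dll1+ only region between them, over 117 kb from 118884216 to 119000750. Another 4 did so over 18.3 kb from 118821679 to 118839930. Within these runs the percentiles ranged from 8.90 to 61.1 and from 15.1 to 62.1. Such runs were shorter in the other genes, with at most 3 in Camk1g and 2 in Pde4d, whose Dll1- only shares were also lower. Run lengths were not taken over all genes. Whether these runs are longer than the share of each gene would give was not tested. Of the 12 Cacna1c regions more than 50 kb from a TSS, 9 were Dll1- only (75.0%, 46.8 to 91.1%), against 26.7% of all regions at that distance. Within 50 kb it was 10 of 25 (40.0%, 23.4 to 59.3%), against 23.6%.

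The strongest Dll1- only regions of Cacna1c were 118839476-118839930, 118922947-118923169 and 118884216-118884500, with folds of 6.22, 6.10 and 5.85 and 47 to 50 reads each. These belonged to the 2 runs. Its only Dll1+ only region, 119081737-119081985, had a fold of 3.12 from 17 reads. It lay 753 bp from 119082739-119083186, the shared region with the highest fold in the Dll1+ list. The latter ranked at the 94.5th percentile of the Dll1+ list and the 80.7th of the Dll1- list, and was the only Cacna1c region in the top decile of either list. In the Dll1- list the shared region 119089015-119089742 was stronger, with a fold of 11.5 against 9.64. At the cluster of 4 TSSs around 119108189 a shared region, with folds of 7.31 and 5.69, was flanked at 97 bp by a Dll1- only region, 119108453-119108797, with a fold of 5.47 from 76 reads. The outermost promoter, that of Cacna1c-212, was shared, with folds of 3.80 and 4.15. In all, 7 of the 10 TSSs had a shared region in their promoter and the other 3 had none, so the difference in calls lay mainly in introns.

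Camk1g (ENSMUSG00000016179.11) spans 24.0 kb of chromosome 1, from 193346346 to 193370298 on the minus strand, with 2 coding TSSs. Neither had a region in its promoter in either list, and the nearest, 193367877-193368466, was shared, lay 2053 bp inside the gene and had folds of 5.03 and 4.60. None of the 20 Dll1- only regions lay inside Camk1g. Of these, 18 lay upstream, at 28.6 to 559 kb, in the intergenic stretch that ends at Plxna2, and the other 2 lay in Lamb3, on the other side. Of the 27 shared regions, 25 lay upstream and 2 inside the gene. The strongest Dll1- only region, 193400229-193400772, had a fold of 7.89 from 100 reads at the 72.8th percentile and lay 30.2 kb upstream, 1117 bp from another Dll1- only region with a fold of 5.05. The next, 193655322-193655726 and 193459785-193460040, had folds of 5.98 and 5.24. Its Dll1+ only regions were 193779396-193779717, with a fold of 5.70 from 26 reads, and 193547720-193547933, with a fold of 3.02.

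The name of Camk1g rests on the rule, which counted protein-coding genes only. The same stretch holds Mir205, an epithelial microRNA gene known from the mammary basal layer, and the non-coding transcript 4631405K08Rik that spans it, at 193507238-193510174. When the TSS of any annotated gene was allowed, 8 of the 20 Dll1- only regions and 14 of the 27 shared regions were nearest to one of these, and 2 and 4 stayed with Camk1g. The promoter of 4631405K08Rik was shared and strong, at the 96.8th percentile of the Dll1+ list and the 95.1st of the Dll1- list. A weak Dll1- only region, 193508372-193508597, with a fold of 2.63 from 56 reads, lay between it and Mir205. Which gene these regions act on was not measured.

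**Figure D4:**
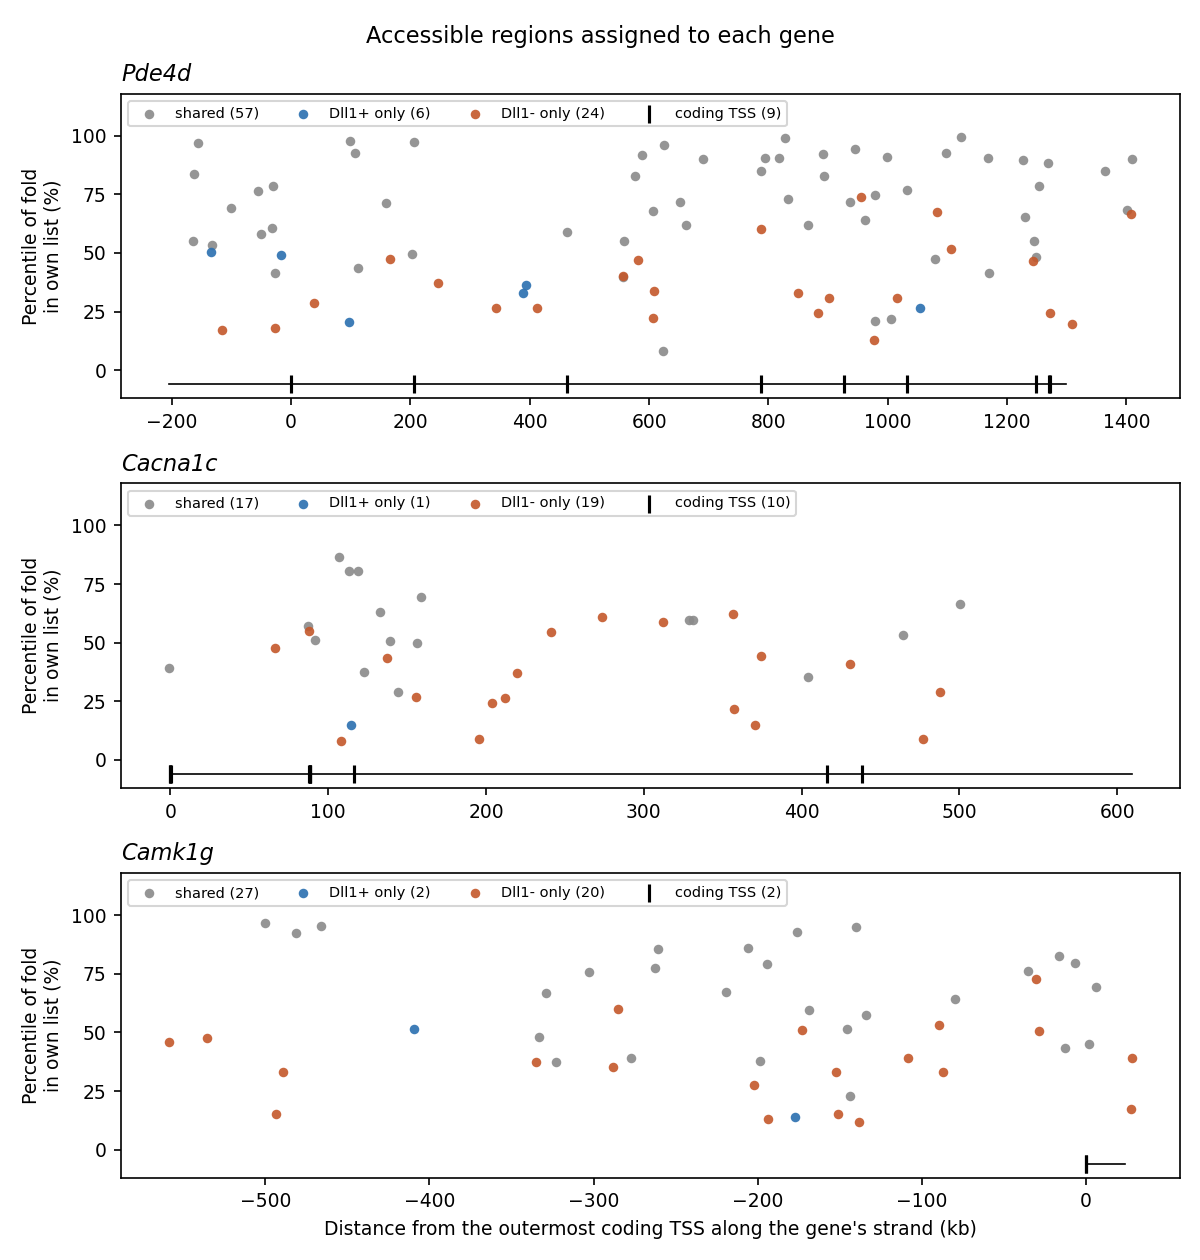
Percentile of fold within the region's own list (y axis, %; the Dll1- list for shared regions) against distance from the outermost coding TSS along the strand of the gene (x axis, kb), in a panel per gene, with coding TSSs as ticks on a line that marks the gene. Dll1- only regions filled the lower part of each panel, formed runs within Cacna1c and lay almost entirely upstream of Camk1g.

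Among the 101 shared regions, 62 (61.4%) ranked higher in the Dll1- list and the other 39 lower, where 59.0% of all shared regions ranked higher in the Dll1- list. A percentile higher by over 20 points in the Dll1- list was seen in 13 shared regions (12.9%) and in the Dll1+ list in 1 (0.990%), against 11.0% and 6.37% of all shared regions. The largest shift was at 193376762-193377083, 6.62 kb upstream of Camk1g, with a fold of 4.85 from 22 reads in Dll1+ cells and 9.39 from 76 reads in Dll1- cells, 38.0 points apart. The opposite shift was at 193693033-193693402, with folds of 7.60 and 4.02, 29.7 points apart, also in the stretch upstream of Camk1g. In Pde4d the largest shift was at 109447816-109448241, 5.85 kb inside the Pde4d-205 transcript, from the 61.0th to the 90.3rd percentile. The median change from the Dll1+ to the Dll1- percentile was 2.5 points over the 101 regions and -4.5 over the 17 of Cacna1c, beside 1.7 over all shared regions, in lists of unequal length.

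Sequence was not used in choosing the genes. An AP-1 match was found within 100 bp of the strongest summit in 22 of the 63 Dll1- only regions, or 34.9% (24.3 to 47.2%), and in 20 of the 101 shared regions, or 19.8% (13.2 to 28.6%). Over all regions the shares were 30.4% and 15.4%, both inside these intervals. Over the 3 classes together 45 of the 173 regions held a match, or 26.0% (20.0 to 33.0%), where 18.1% of all regions did, a share outside that interval. The genes were chosen for their Dll1- only regions, so the mix of classes behind these shares differs. Its part in the 26.0% was not tested, and within each class the share was also above that of all regions. By gene the Dll1- only counts were 7 of 24 in Pde4d, 7 of 19 in Cacna1c and 8 of 20 in Camk1g. Of the 9 Dll1+ only regions 3 held a match (33.3%, 12.1 to 64.6%), where 4.41% of all Dll1+ only regions did. One of these lay 753 bp from the shared region of Cacna1c with the highest fold in the Dll1+ list, and the other 2 were in introns of Pde4d.

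**Figure D5:**
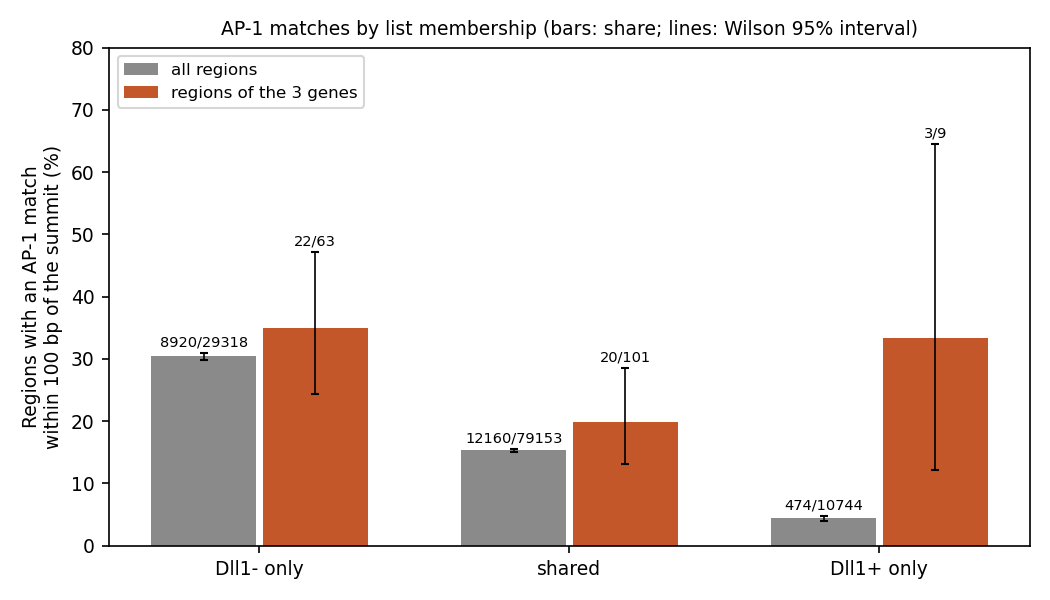
Share of regions with an AP-1 match within 100 bp of the strongest summit (y axis, %) by list membership (x axis), for all regions and for the regions of the 3 genes, with Wilson 95% intervals and counts above the bars. The Dll1- only bars stood at 30.4% and 34.9%, and the Dll1+ only bars at 4.41% and 33.3%, the latter from 3 of 9 regions.

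Of 7 motifs searched, those of the pathway's own factors were rare or near the common level. The NFAT core TGGAAA was found in 13 of 63 Dll1- only regions (20.6%, 12.5 to 32.2%), against 17.6% of all such regions. The CRE was found in 1 of 63 (1.59%), against 0.723%, and in 1 of 101 shared regions (0.990%), against 1.02%. The RBPJ match TGTGGGAA, the site of the factor that carries Notch signals, was found in 4 of 63 (6.35%, 2.50 to 15.2%), against 1.75%, and in 3 of 101 shared regions, against 1.53%. These 4 were the Pde4d-203 promoter region, the strongest Dll1- only region upstream of Camk1g shown above, and 118708529-118708778 and 118922947-118923169 in introns of Cacna1c, the last among its 3 strongest. MEF2 matches were found in 2 of 63 (3.17%, 0.875 to 10.9%), against 0.733%, and a CArG box in 1 (1.59%), against 0.928%. The NF-kB match GGGANTTCC was found in 0 of the 173 regions, with an upper bound of 2.17%, where 1.25% of all regions held one. A match is a string of letters and does not show that a factor was bound.

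In the rest of the pathway, taken from a list of 95 genes without these 3, 68 of the 93 genes with a region (73.1%) had more Dll1- only than Dll1+ only regions and 8 (8.60%) had fewer, beside the 51.7% and 11.3% of all genes. The genes of the list had a median of 6 regions, where all genes had 4. Their median difference was 1, the same as over all genes, and 29.1% of their 1006 regions were Dll1- only, against 24.6% of all regions. Voltage-gated calcium channel genes other than Cacna1c had the highest share of the groups, with 45 of 104 regions Dll1- only (43.3%) and 4 Dll1+ only, and 14 of 15 had more Dll1- only regions. Phosphodiesterase genes had 28.6%, adenylyl cyclases, which make cAMP, 29.3%, and cAMP effectors 27.5%. Calcineurin and NFAT genes had 33.3%, calmodulin and CaM kinase genes 27.1%, calcium store and pump genes 25.1%, and CREB factors and coactivators the lowest share, 18.8%.

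Beside the 3 genes, the largest differences in the list were those of Nfatc1, a calcium-responsive transcription factor, with 12 Dll1- only and 0 Dll1+ only of 23 regions, and of Camk1d, a kinase of the same family as Camk1g, with 12 and 1 of 20. Atp2b4, a calcium pump of the plasma membrane, had 10 and 0 of 13. Ppp3ca, the catalytic subunit of calcineurin, had 12 and 2 of 38, and Nfatc2 had 8 and 0 of 25. At the other end Camk2g had 0 and 2 of 9, Camk2d 6 and 7 of 28, and Adcy1 1 and 2 of 5, while Camk4 and Crem each had 0 and 1 of 5. Pde4b, the close relative of Pde4d, had 9 and 6 of 57 (15.8% Dll1- only), named here after its values were seen.

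Markers of other cell types were read beside these counts. As background, 24.6% of all regions were Dll1- only, and of all promoter regions 11.5% were Dll1- only and 3.43% Dll1+ only. All 10 luminal epithelial promoters, among them Krt8, Krt18 and Epcam, were open in both lists. Of 10 fibroblast markers, the promoters of Col1a2, Pdgfrb and Fap were called only in the Dll1- list, that of Pdgfra in both and 6 in neither, among them Col1a1 and Dcn. The regions assigned to the 10 fibroblast genes were Dll1- only in 49 of 96 cases (51.0%), with 3 Dll1+ only, where the share for Cacna1c was 51.4%. The fibroblast genes were uneven, with 14 Dll1- only regions at Twist2 and 11 at Col1a2 but 1 at Col3a1 and 0 at Lum. Of 7 pericyte and vascular muscle markers, the promoters of Rgs5, Des and Abcc9 were called only in the Dll1- list, 3 in both and 1 in neither, and 33.3% of their regions were Dll1- only. Immune markers had 12 Dll1- only, 2 Dll1+ only and 20 shared regions (35.3% Dll1- only). Of their 10 promoters, that of Csf1r was called only in the Dll1- list, that of Cd68 in both and 8 in neither. Endothelial markers had 33, 7 and 72 regions (29.5%), with the promoters of Kdr and Flt1 called in both lists and 8 of 10 in neither. Adipocyte markers had 12, 0 and 18 (40.0%), with the promoter of Cidec called only in the Dll1- list, that of Pparg in both and 4 of 6 in neither. For basal and myoepithelial markers the share was 27.8%. Of these 10 promoters 6 were open in both lists, and those of Krt5, Krt14, Trp63 and Mylk in neither. For luminal markers the share was 14.8%. The part of other cell types in the excess at Cacna1c, Camk1g and Pde4d was not tested.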

How the data were processed

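Tumour cells were profiled by ATAC-seq and the authors processed the replicates of each population together, with the ENCODE pipeline for ATAC-seq. The deposited optimal peak lists hold, per summit, the authors' fold enrichment (a ratio to local background), a −log10 p-value, a q-value and a score. The q-value and the score were not used. The aligner, peak caller and thresholds are not given in the sources used here. The submitters' processing notes name mm10 and GRCm38, and 0 rows passed a chromosome end of GRCm38.

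Overlapping or touching rows of both lists formed 119215 regions, each given its strongest row, and assigned by midpoint with GENCODE M21 (basic). A percentile is the share of rows of the same list with a fold no higher. Reads were recovered from fold and −log10 p under a Poisson model, to within 0.001 or a relative 1e-05, for all but 1 of the 281795 rows. The model and the region merging were tested on simulated data. Motifs were searched on both strands in GRCm38.p6. Shares carry Wilson 95% intervals; no p-value was computed. Python 3.11.15, numpy 2.4.6, pandas 2.3.3 and scipy 1.17.1 were used. The genes, lists, motifs and settings were chosen with earlier results of these data known. Genes named were the 3 members, those above or beside them in the order of Dll1- only minus Dll1+ only regions with the next 5, and the 5 highest and 5 lowest of the pathway list, with ties by name. Regions named were, per gene, the 3 strongest Dll1- only, the strongest Dll1+ only, the nearest to a TSS and the strongest shared, with other regions picked after their values were seen. Settings tried were stricter, equal-number, depth-scaled and asymmetric lists, other assignments, a 50 kb limit, regions per list and a 50 bp motif window.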

Additional observations from a re-analysis of the deposited data

How the results depend on the processing

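With only rows above the median fold of their own list, Dll1- only regions fell to 9 of 53 in Pde4d (17.0%), 8 of 18 in Cacna1c (44.4%) and 10 of 28 in Camk1g (35.7%), where 20.4% of all regions were Dll1- only, so that the share of Pde4d went from above to below that of all regions, and Dll1+ only regions of Pde4d to 1. When only specific regions had to pass that median, 5 Dll1- only regions were left in each gene, which were 7.94, 22.7 and 15.2% of the regions of Pde4d, Cacna1c and Camk1g (7.10% of all regions), with 1, 0 and 1 Dll1+ only. Within 50 kb of a TSS the Dll1- only counts were 13 of 42 (31.0%), 10 of 25 (40.0%) and 4 of 10 (40.0%), against 23.6% of all regions, with 2 Dll1+ only regions in Pde4d and 0 in Camk1g. With the nearest TSS of any annotated gene, Cacna1c had 12 of 28 (42.9%) and Camk1g 2 of 6 (33.3%), against 24.6% of all regions, with 0 Dll1+ only in Camk1g. With only the outer TSS of each gene, a setting chosen after seeing the data, Pde4d had 11 of 44 and Cacna1c 0 of 1, against 24.6% of all regions, with 0 Dll1+ only in Cacna1c and 4 in Camk1g. In that setting 12 Dll1- only and 11 shared regions of Cacna1c went to Dcp1b and 7 and 5 to Ankrd26, and 13 Dll1- only and 30 shared regions of Pde4d went to Rab3c.

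With equal numbers of rows, the Dll1- only counts of Pde4d, Cacna1c and Camk1g were 22, 15 and 16 (25.9, 45.5 and 35.6% of their regions, against 22.3% of all regions), which is within 1.5 times the main counts, as were those from scaled depth, assignment by summit and regions per list. Scaling the Dll1- reads by 1.93 removed rows only where the expected −log10 p fell under the lowest of the Dll1+ list, which was 2.00. It kept 146652 of 148923 rows and leaves out the sampling of reads, so the unchanged counts in this setting carry little information. The AP-1 share of 34.9% ran from 30.2 to 37.0% over its settings, and the pathway count of 68 was 63 within 50 kb. No paired analysis was possible because each population is 1 pooled list, and for the same reason no sample could be left out.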
